A study of Ovis aries with 16 samples.

Results

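Estradiol given alone was examined in the hypothalamus of late-gestation fetal sheep by setting the 4 fetuses titled estradiol against the 4 fetuses titled control. The samples were chosen by their titles, and they are 8 of the 16 arrays of the series. Each array held RNA from the hypothalamus of 1 fetus, and every fetus carried chronic catheters. Control fetuses had a sham occlusion and no steroid. Estradiol fetuses had the same sham period after 5 days of estradiol at 250 ug per day. The remaining 8 arrays came from fetuses in which the brachiocephalic artery, which feeds the head, was occluded for 10 min (BCO), 4 without estradiol and 4 with it (estradiol+BCO). Gestational age was 124 to 128 days in all 16 (term falls at 147), and the hypothalamus was collected 1 h from the onset of the sham or occlusion. Breed and fetal sex are not among the labels used here, nor whether the fetuses had separate mothers. The p-values therefore measure only the spread among these 16 fetuses within their groups.

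Estradiol acts mainly through the nuclear receptors ESR1 and ESR2, which bind DNA and change transcription, and a classical target in the adult hypothalamus is the progesterone receptor, PGR. The hypothalamus holds the peptide neurons that set pituitary hormone release, feeding and arousal, and in sheep the placental estrogen of late gestation reaches the fetal brain in the weeks when the fetal adrenal axis matures before birth. Orexin receptors, the water channels of astrocytes and ependyma, and the glial filament protein GFAP are among the genes through which hypothalamic neurons and glia are usually described.

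The array reads each transcript through an oligonucleotide of 60 bases. The first set shown here gives the probes of the leading named genes in whole, in lower case with no part singled out: the 2 orexin receptors, both probes of the angiogenic factor AGGF1, which start 95 bases apart and share no base, and the adaptor NCK1.
HCRTR1: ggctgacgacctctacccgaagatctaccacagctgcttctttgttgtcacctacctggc
HCRTR2: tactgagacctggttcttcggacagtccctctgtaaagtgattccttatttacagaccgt
AGGF1 first probe: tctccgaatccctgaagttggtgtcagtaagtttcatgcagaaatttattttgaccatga
AGGF1 second probe: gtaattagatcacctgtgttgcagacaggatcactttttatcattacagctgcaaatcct
NCK1: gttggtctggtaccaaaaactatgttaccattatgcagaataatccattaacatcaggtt
Some genes are read by probe pairs that overlap almost fully, so their 2 values are close to a repeat of 1 measurement. The first 30 bases of both probes of AQP3 and GFAP are given with the stretch common to the printed parts in capitals. The AQP3 pair shares 59 of its 60 bases and the GFAP pair 57.
AQP3 brighter probe: tCATAAATAAGGAGCAGGAGAGTGATGGGT
AQP3 dimmer probe: CATAAATAAGGAGCAGGAGAGTGATGGGTt
GFAP dimmer probe: tgcTAGTTAATTTCCCCAGAATTGAGTTCC
GFAP brighter probe: TAGTTAATTTCCCCAGAATTGAGTTCCcac
The last set holds the 3 probes at which the estradiol difference itself differed between sham-occluded and occluded fetuses. None of them carries a gene name in the annotation used, so they are known here by probe number and sequence. A_70_P036801 is printed whole and the other 2 by their first 30 bases.
A_70_P036801: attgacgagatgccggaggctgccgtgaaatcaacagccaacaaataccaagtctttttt
A_70_P055401: tataacattcccccattatgtaattcccat
A_70_P005946: atttgaaggagagaaggatttcatcaaatg

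A level below is a probe's log2 processed signal less that array's 75th percentile, and a difference is estradiol minus control on that scale, ± SE from a linear model of all 16 arrays with slide as a block. The 75th percentile was 2024 to 2908 units and 77.3% to 86.4% of probes were well above background per array. For estradiol against control neither passed an exact permutation test (p = 1.0 and 0.371, 2-sided). The arrays sat on 2 slides, with replicates 1 and 2 of each group on slide 1 and replicates 3 and 4 on slide 2, and 856 probes differed between the slides, so slide values stand beside the pooled ones. Checked against the tissue label, the 14 measured peptide genes of the hypothalamus ranged widely in level. The brightest were somatostatin (SST), at 3.10 to 4.62, and the peptide PACAP (ADCYAP1), at 3.61 to 4.63 in the 8 fetuses. Others were dim, such as PMCH at -5.34 to -4.11 and GNRH1 at -6.20 to -3.23. The mean level of the 14 ran from -0.59 to -0.04 in control and from -1.64 to 0.54 in estradiol. Pituitary markers were present unevenly: the mean level of 8 such genes ran from -4.55 to -2.08 in control and from -3.95 to -2.57 in estradiol. The neuron and oligodendrocyte lists had 0 measured genes.

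No transcript passed the test for estradiol alone. Of 12937 probes, 0 (0%) had an adjusted p under 0.05, and the smallest adjusted p was 0.307. At an unadjusted p under 0.05 there were 522 probes (4.03%), 266 higher (2.06%) and 256 lower (1.98%) with estradiol, and 48.7% of all means were higher and 51.3% lower. The 4 estradiol fetuses lay wholly above the 4 controls at 221 probes (1.71%) and wholly below them at 192 (1.48%), together 3.19%. Read within each slide, both estradiol fetuses exceeded both controls on both slides at 494 probes (3.82%) and lay below them at 463 (3.58%). Most differences were small. The median absolute difference was 0.12, against a median SE of 0.16, and the central range from the 10th to the 90th percentile ran from -0.25 to 0.26. The values that follow describe the genes with the lowest p and others taken by name or from gene lists. Many of the others lie inside that range, and none of the values is a call for estradiol against control. Since this is bulk tissue, fewer cells of a type and less RNA per cell cannot be told apart in any of them.

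Of the genes through which estradiol acts, the receptors overlapped between the groups. ESR1, the main nuclear receptor, was at -0.52, 0.35, -0.39 and -0.17 in control replicates 1 to 4 and at -0.12, 0.11, -0.13 and -1.25 with estradiol. The groups overlapped, with estradiol replicate 4 the lowest, and the difference of -0.16 ± 0.41 had a 95% interval from -1.04 to 0.72. ESR2, the second nuclear receptor, was dim, at -6.33 to -5.47 in control and -6.29 to -5.96 with estradiol (-0.11 ± 0.32). PGR, the progesterone receptor, ran from -5.10 to -3.78 in control and from -4.79 to -4.18 with estradiol. Its difference was -0.01 ± 0.40, with an interval from -0.87 to 0.84, so a change of up to about that size in either direction is within the error. Over the 19 measured genes of the estrogen and progesterone list, 10 means were higher and 9 lower, 0 had an unadjusted p under 0.05 in either direction, and the median was 0.01 (all probes -0.01).

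The widest differences in that list were in PTGS2 and FOS. PTGS2, the inducible prostaglandin synthase, was at -2.56, -3.30, -2.53 and -0.81 in control and at -0.72, -1.86, -0.75 and -1.36 with estradiol. Control replicates 1 to 3 lay below all estradiol fetuses, and control replicate 4 lay at their upper end. The difference was 1.12 ± 0.57 (unadjusted p = 0.0702, adjusted p = 0.984), or 1.57 without control replicate 4, and it was 1.64 on slide 1 and 0.61 on slide 2. A second PTGS2 probe, starting 184 bases away, gave 0.87 ± 0.49, but it was near background, well above it in 2 of 4 controls, and gave 0.35 with normexp correction. FOS, an early gene of neuronal activation, differed by 0.49 ± 0.27 and its 3 other probes by 0.40, 0.46 and 0.51, the last 2 from probes that share 59 bases. Of 6 activity-dependent genes 5 means were higher, among them JUNB at 0.57 ± 0.41, and 0 passed. OXTR, the oxytocin receptor, was dim on both probes (0.30 ± 0.46 and 0.97 ± 0.59).

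Both orexin receptors were lower in every estradiol fetus than in any control. Orexins are peptides of the lateral hypothalamus that promote waking and feeding, and HCRTR1 and HCRTR2 are their receptors. HCRTR1 was at -3.15, -3.68, -3.28 and -3.31 in control and at -4.43, -4.33, -3.87 and -4.40 with estradiol. Every estradiol fetus lay below every control, on both slides (-0.96 and -0.84). The difference was -0.90 ± 0.21, or 1.87-fold lower (unadjusted p = 0.000915, adjusted p = 0.984). With normexp background correction, which compresses dim signals, it was -0.54. HCRTR2 was at -3.19, -3.32, -3.00 and -3.29 in control and at -3.75, -3.40, -3.59 and -3.65 with estradiol. These groups did not overlap either, and the difference was -0.40 ± 0.15 (unadjusted p = 0.0234), with -0.32 and -0.47 on the slides. Orexin itself was not among the named probes tested.

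The rest of the peptide receptors had lower means more often than higher ones. Of 14 measured neuropeptide receptors 11 means were lower and 3 higher, with a median of -0.25 (all probes -0.01), and 2 had an unadjusted p under 0.05, the orexin pair. The somatostatin receptor SSTR2 was at -1.55 to -0.80 in control and at -1.91 to -1.62 with estradiol, and its groups did not overlap (-0.47 ± 0.23). The bombesin receptor family member BRS3 differed by -0.43 ± 0.32 and the thyrotropin-releasing hormone receptor TRHR by -0.84 ± 0.90, the latter through estradiol replicate 2 at -4.37 against -2.60 to -1.82 in its group. NPY1R, a receptor for neuropeptide Y, was higher in its mean by 0.28 ± 0.16. On slide 1 alone 7 of the 14 were higher and on slide 2 2 of the 14, so the count of 11 rests mostly on slide 2, whereas the orexin pair was lower on both.

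**Figure D1:**
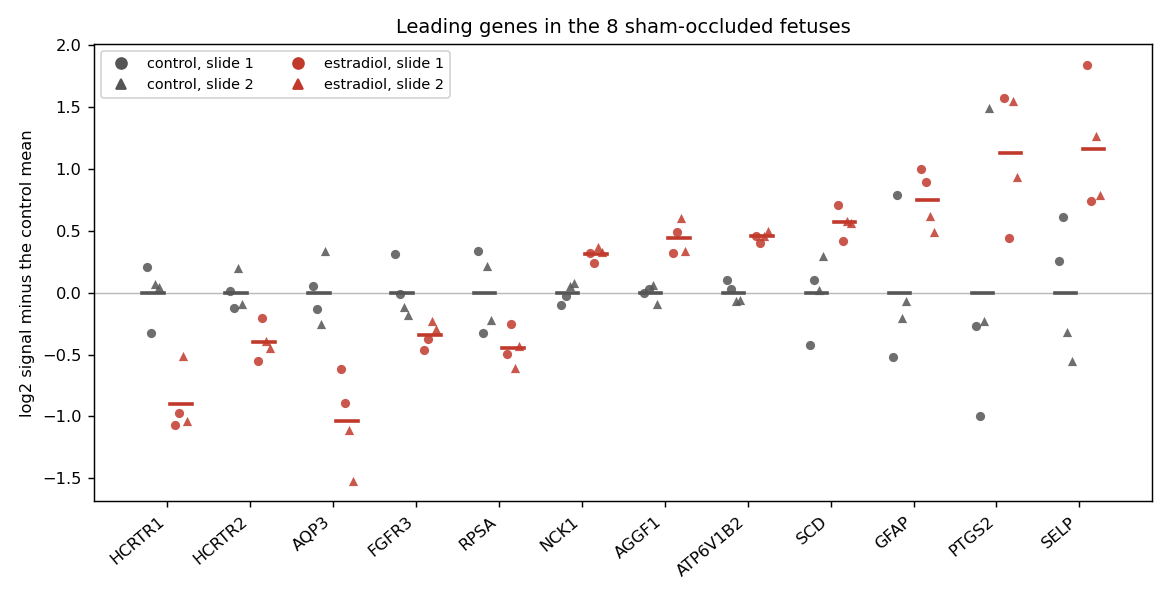
Level of 12 named genes in each of the 8 sham-occluded fetuses (log2 signal minus the mean of the 4 controls); circles are slide 1, triangles slide 2, bars the group means. HCRTR1, HCRTR2 and AQP3 with estradiol lie below every control and NCK1, AGGF1 and ATP6V1B2 above every control, while GFAP and PTGS2 each have 1 control among the estradiol points.

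Astrocytes support neurons, clear glutamate and line vessels and the glial limit, and 6 of their markers were measured. GFAP, the astrocyte filament protein, was at 0.31, 1.62, 0.63 and 0.77 in control and at 1.83, 1.72, 1.45 and 1.32 with estradiol on the dimmer probe. Control replicate 2 lay within the estradiol range and the other 3 controls below it. The difference was 0.75 ± 0.26, or 1.68-fold (unadjusted p = 0.0114, adjusted p = 0.984), with 0.81 and 0.69 on the slides, and the overlapping probe gave 0.66 ± 0.27. The glutamate transporters SLC1A3 and SLC1A2, listed under older names in the files, differed by 0.35 ± 0.22 and 0.32 ± 0.25. AQP4, the water channel of astrocyte endfeet, was at 5.18 to 5.72 in control and 5.60 to 5.86 with estradiol (0.24 ± 0.17). The gap junction protein GJA1 differed by -0.04 ± 0.18. FGFR3, a growth factor receptor of astrocytes, went the other way at -0.34 ± 0.13 on 1 probe, where the groups did not overlap, and at -0.18 ± 0.17 on a probe sharing 59 bases with it, where they did. Both probes were dim, and with normexp correction the differences were -0.05 and 0.06. The list had 4 means higher and 2 lower, with 1 unadjusted p under 0.05 on each side and a median of 0.28.

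AQP3, a channel for water and glycerol, was low with estradiol in every fetus. It was at -5.48, -5.66, -5.79 and -5.20 in control and at -6.15, -6.43, -6.64 and -7.05 with estradiol on the dimmer probe, and no estradiol fetus reached a control. The difference was -1.04 ± 0.25 (unadjusted p = 0.00119), and the brighter probe gave -0.77 ± 0.27 with overlapping groups. The signal behind these values was faint, with a median of 49 units in control and 25 with estradiol, and with normexp correction the difference was -0.16. Of the 16 water channel and ion transport genes 9 means were higher and 7 lower. The clearest on the higher side was ATP6V1B2, a subunit of the proton pump that acidifies vesicles. It was at 1.84, 1.78, 1.67 and 1.68 in control and at 2.20, 2.14, 2.20 and 2.24 with estradiol, a gap in every fetus. The difference was 0.45 ± 0.14, or 1.37-fold (unadjusted p = 0.00507), and a brighter probe starting 78 bases away, sharing no base, gave 0.57 ± 0.24 with groups that did not overlap. ATP6V0C, another subunit of that pump, differed by -0.07 ± 0.12.

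AGGF1, a secreted factor that promotes vessel growth, had the lowest p of any named gene. The first probe was at 0.08, 0.12, 0.14 and -0.01 in control and at 0.41, 0.57, 0.69 and 0.42 with estradiol. All 4 estradiol fetuses exceeded all controls, by 0.44 ± 0.09 or 1.36-fold (unadjusted p = 0.000288, adjusted p = 0.913). The second probe, at a separate stretch of the transcript, was at -0.67, -0.61, -0.76 and -0.82 in control and at -0.40, -0.47, -0.15 and -0.48 with estradiol, again without overlap (0.34 ± 0.09). Of the 16 angiogenesis genes 11 means were higher and 5 lower, with a median of 0.06. VEGFA, the main endothelial growth factor, differed by 0.24 ± 0.20 and its receptor KDR by 0.02 ± 0.15, so the probes of AGGF1 stood alone on the higher side at an unadjusted p under 0.05. The 10 endothelial and mural genes had a median of 0.09, with 6 higher and 4 lower and 0 at that level.

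Genes of adhesion and signalling had 2 members at that level, in opposite directions. NCK1, an adaptor that links tyrosine kinases to the actin skeleton, was at -1.25, -1.18, -1.09 and -1.07 in control and at -0.83, -0.90, -0.78 and -0.82 with estradiol. The groups did not overlap (0.32 ± 0.11, unadjusted p = 0.0131). RPSA, a ribosomal protein that also serves as laminin receptor, was at 4.16, 3.50, 4.04 and 3.60 in control and at 3.33, 3.57, 3.22 and 3.40 with estradiol. Only estradiol replicate 2 reached the controls (-0.45 ± 0.17), and the 8 other genes of the translation list lay between -0.13 and 0.06. SELP, the selectin through which endothelium and platelets catch leukocytes, was at -6.62, -6.27, -7.20 and -7.43 in control and at -5.04, -6.14, -5.62 and -6.09 with estradiol. Its groups did not overlap (1.16 ± 0.42), but the median signal was 20 units in control and 41 with estradiol, and a second probe gave 0.95 ± 0.47 with overlap. The integrin subunit ITGA4 differed by 0.58 ± 0.19 on a dim probe and by -0.02 ± 0.29 on a probe that shares 40 bases with it. KIT, the receptor for stem cell factor, was at 21 units in control and 13 with estradiol (-0.69 ± 0.25, and 0.06 with normexp correction), and its ligand KITLG differed by 0.18 ± 0.50.

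SCD, the desaturase that makes monounsaturated fatty acids, was at -3.39, -2.86, -2.94 and -2.67 in control and at -2.25, -2.55, -2.38 and -2.40 with estradiol. The groups did not overlap, and the difference was 0.57 ± 0.21, or 1.48-fold (unadjusted p = 0.0198). FTO, a demethylase of RNA bases, was at -0.35, -0.34, -0.60 and -0.50 in control and at -0.25, 0.01, -0.08 and -0.30 with estradiol, without overlap (0.29 ± 0.12), and a second probe gave 0.22 ± 0.14. These were the 2 of 16 lipid and gluconeogenic genes at an unadjusted p under 0.05. The list as a whole had 7 means higher and 9 lower and a median of -0.09. FASN, which builds fatty acids upstream of SCD, differed by 0.09 ± 0.13. ABHD5, a coactivator of triglyceride breakdown, ran from -1.35 to -1.15 in control and from -1.13 to -0.70 with estradiol (0.36 ± 0.13). COX5A, a subunit of cytochrome c oxidase, was dim and differed by 0.88 ± 0.34, and SLC25A6, an exchanger of ADP and ATP in mitochondria, was lower in its mean by 0.24 (a difference of -0.24 ± 0.09). VDUP1, an older name of the thioredoxin inhibitor TXNIP, differed by 0.92 on slide 1 and 0.18 on slide 2.

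Further genes completed the set with the lowest p. The histone chaperone ASF1A differed by 0.27 ± 0.10. I-MF, an inhibitor of myogenic transcription factors, differed by -0.52 ± 0.18 on 1 probe and -0.37 ± 0.14 on a probe sharing 59 bases. FGF18, a fibroblast growth factor, was at -4.63 to -4.07 in control and -5.20 to -4.29 with estradiol (-0.57 ± 0.21, and -0.21 with normexp correction). Of the 46 named genes 11 had groups that did not overlap on the probe that stands for the gene in the text. Of the 46, 20 were chosen by a low p and stand by their lowest-p probe. FTO was chosen by a low p within its list. All 11 came from these genes, so the count reflects that choice. All 1341 named probes, read without that choice, had 42 with groups that did not overlap (3.13%) and 54 at an unadjusted p under 0.05 (4.03%).

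Genes of the stress axis overlapped between the groups. CRHBP, the binding protein of corticotropin-releasing hormone, was at -0.08 to 0.66 in control and 0.09 to 0.37 with estradiol (-0.02 ± 0.28). Its receptor CRHR1 differed by -0.04 ± 0.25 and the glucocorticoid receptor NR3C1 by -0.16 ± 0.19, with opposite signs on the slides for both. HSD11B1, which regenerates active glucocorticoid, differed by -0.25 ± 0.30. STAR, the cholesterol carrier of steroid synthesis, was dim (0.15 ± 0.30). AVPR1B, a vasopressin receptor, was at -3.41 in estradiol replicate 1 and at -6.53 to -6.13 in the other 7 fetuses, and a probe sharing 59 bases with it read -6.28 in that fetus, so the high value belongs to 1 probe on 1 array. Over 11 genes of the adrenal axis 7 means were higher and 4 lower, with 0 at an unadjusted p under 0.05 and a median of 0.05.

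Several hypothalamic neuropeptides differed widely within each slide, in opposite directions, and their pooled differences were imprecise. AGRP, the feeding peptide of arcuate neurons, was at -1.19, -1.90, -0.56 and -0.53 in control. With estradiol it was at -0.14 and 0.92 on slide 1 and at -4.16 and -4.88 on slide 2. The first pair of estradiol fetuses lay above every control and the second pair below every control. The difference was 1.94 on slide 1 and -3.98 on slide 2, and -1.02 ± 1.02 pooled.

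NPY, which the same neurons release, was at 1.35, 0.91, 1.92 and 2.27 in control and at 2.45, 3.11, -0.26 and -0.09 with estradiol (1.65 and -2.27 on the slides). The order was that of AGRP, with no estradiol fetus inside the control range. GHRH, which drives growth hormone release, was at -4.19, -2.07, -1.47 and -1.20 in control. With estradiol it was at -0.61, 0.06, -3.28 and -6.86 (2.86 and -3.73). On slide 2 both estradiol fetuses lay below both controls. Estradiol replicate 3 fell inside the range of all 4 controls only through control replicate 1, on slide 1. POMC, from which ACTH and beta-endorphin are cut, was at 0.90, 0.71, 1.34 and 1.99 in control and at 2.16, 2.10, 0.41 and 0.38 with estradiol (1.32 and -1.27). For POMC estradiol replicates 1 and 2 again stood above and replicates 3 and 4 below all controls.

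For galanin (GAL) and the RFamide peptide NPVF the slide 2 estradiol fetuses lay below every control. GAL was at -0.98, -0.45, -0.46 and 0.14 in control and at -0.39, 0.06, -1.95 and -2.59 with estradiol (0.55 and -2.10). NPVF was at -2.20, -0.21, -0.96 and 0.36 in control and at -1.94, 0.38, -2.26 and -4.13 with estradiol (0.42 and -2.90). Its estradiol replicate 3 was barely below the lowest control, and replicate 2 barely above the highest. Oxytocin (OXT) ran the other way, at 1.84, 2.57, 1.88 and -1.12 in control and 0.55, 1.27, 1.61 and 1.70 with estradiol, so that its difference was -1.30 on slide 1 and 1.28 on slide 2. The slide 2 value rests on control replicate 4, the only fetus below 0. GNRH1, the releasing hormone for gonadotropins, spread from -6.20 to -3.23 in control and -6.17 to -3.38 with estradiol (-0.33 ± 1.08), and TAC3, the neurokinin B of arcuate neurons, stood at -0.19 in estradiol replicate 2 and at -2.49 to -1.68 in the other 7 fetuses.

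Over the 14 peptide genes the median difference was 0.50 on slide 1 and -0.90 on slide 2, and -0.18 pooled. Signs were opposite on the slides for 11 of 14, against 6081 of 12937 probes (47%), and 5 of the 14 were opposite with at least 1 log2 unit on each slide, against 44 probes (0.34%). These 5 were AGRP, NPY, GHRH, POMC and OXT. All but OXT moved the same way in the same fetuses, so they are not separate observations to set against that share. OXT ran the other way. The sign also differed between the slides for the 3 markers of hypothalamic nuclei, with ISL1 and NR5A1 higher on slide 1 and lower on slide 2 and ARNT2 the reverse. ISL1, a factor of arcuate neurons, was at -2.06, -2.18, -1.47 and -1.38 in control and at -1.93, -1.26, -2.38 and -3.05 with estradiol. NR5A1, which marks the ventromedial nucleus, was at -8.60, -6.75, -6.69 and -6.59 in control and at -7.01, -5.56, -7.13 and -8.63 with estradiol. These levels were dim, like those of KIT (-7.85 to -6.14 in the 8 fetuses), so its slide values are uncertain. For the list of 3 such factors the median was 0.52 on slide 1 and -1.23 on slide 2, the latter being the value of the dim NR5A1. The mean level of the list ran from -5.18 to -4.48 in control and from -5.70 to -4.06 with estradiol. The third, ARNT2, was at -4.88, -5.22, -5.29 and -5.73 in control and at -5.24, -5.37, -5.34 and -5.43 with estradiol (-0.26 on slide 1 and 0.13 on slide 2).

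Pituitary genes differed between single fetuses, and some between the slides. CGA, the alpha subunit of the glycoprotein hormones, was at -0.74, -6.47, 1.39 and -2.50 in control and at -0.84, 3.45, -5.22 and -5.20 with estradiol. Its difference was 4.91 on slide 1 and -4.66 on slide 2, the directions seen for AGRP and GHRH. Opposite signs on the slides were found for 6 of the 8 pituitary genes (47% of all probes). The 2 that were opposite with at least 1 log2 unit on each slide (0.34% of all probes) were CGA and POMC, the latter also a peptide gene. PRL, prolactin, was at 1.13 in control replicate 4 and at -3.80 to -3.46 in the other controls, against -5.26 to -4.02 with estradiol (-2.17 ± 0.98). LHB, by contrast, lay between 1.90 and 2.43 in all 8 fetuses. The part of these tissue markers in the peptide values was not tested. The choroid plexus marker TTR was at 0.56 to 3.69 in control and -1.09 to 2.07 with estradiol. Its difference was -3.06 on slide 1 and -0.38 on slide 2, and its list of 3 had a median of -0.49.

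**Figure D2:**
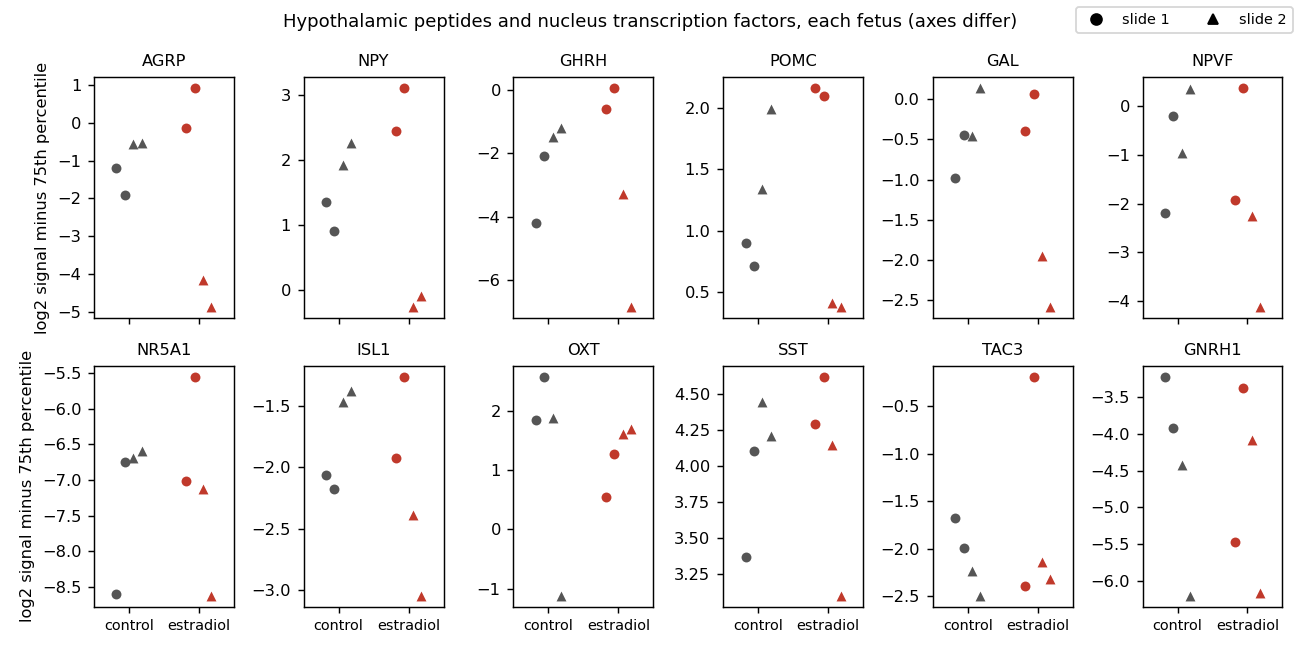
Level of 10 peptide genes and of the nucleus markers NR5A1 and ISL1 in each control and estradiol fetus (log2 units above the array's 75th percentile; circles slide 1, triangles slide 2; each panel has its own axis). For AGRP, NPY and POMC the slide 1 estradiol fetuses lie above every control and the slide 2 ones below every control.

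**Figure D3:**
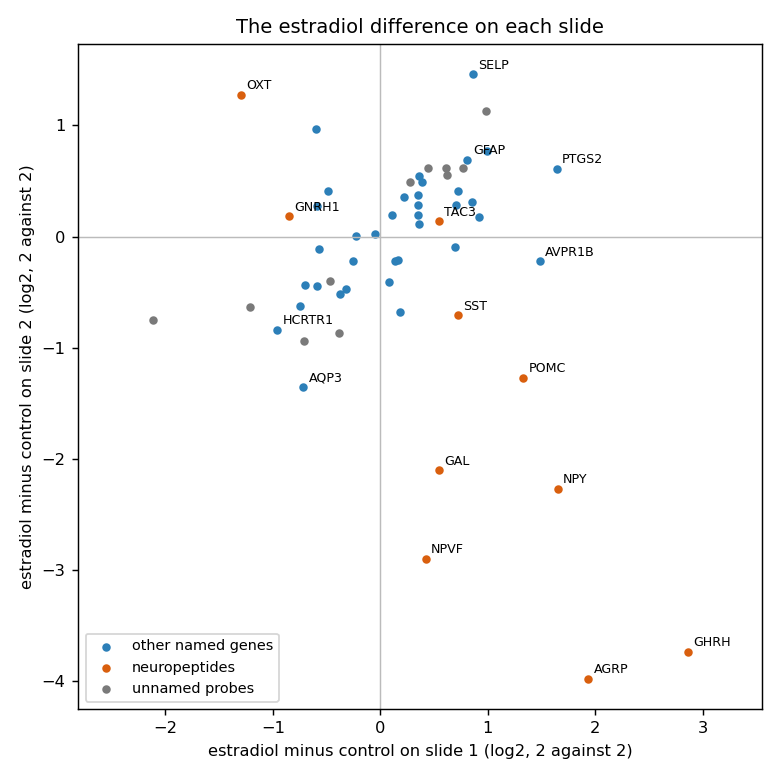
The estradiol minus control difference on slide 1 (horizontal, log2, 2 fetuses against 2) and slide 2 (vertical) for each named gene and unnamed probe described. AGRP, GHRH, NPY and POMC lie far to the lower right, with opposite signs, while HCRTR1 and AQP3 are below 0 and GFAP and SELP above 0 on both slides.

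Over the 29 lists with at least 3 measured genes the medians ran from -0.49 to 0.28, and 0 members of any list passed the test. The 7 fibroblast and meningeal markers all had higher means with estradiol (median 0.13), by 0.42 on slide 1 and -0.13 on slide 2, so the direction was not shared by the slides. The 27 inflammation genes had 15 means higher and 12 lower (median 0.01). Their widest members were CXCL8, a chemokine for neutrophils, at 1.21 ± 1.16 and the adhesion molecule ICAM1 at 1.20 ± 0.88, the latter through estradiol replicate 1 at -1.78 against -5.19 to -3.95 in its group. The 5 microglia and leukocyte markers had a median of 0.04. HSP90AA1, the chaperone that holds steroid receptors ready for ligand, differed by 0.18 ± 0.08 and was the one chaperone gene of 9 at an unadjusted p under 0.05.

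**Figure D4:**
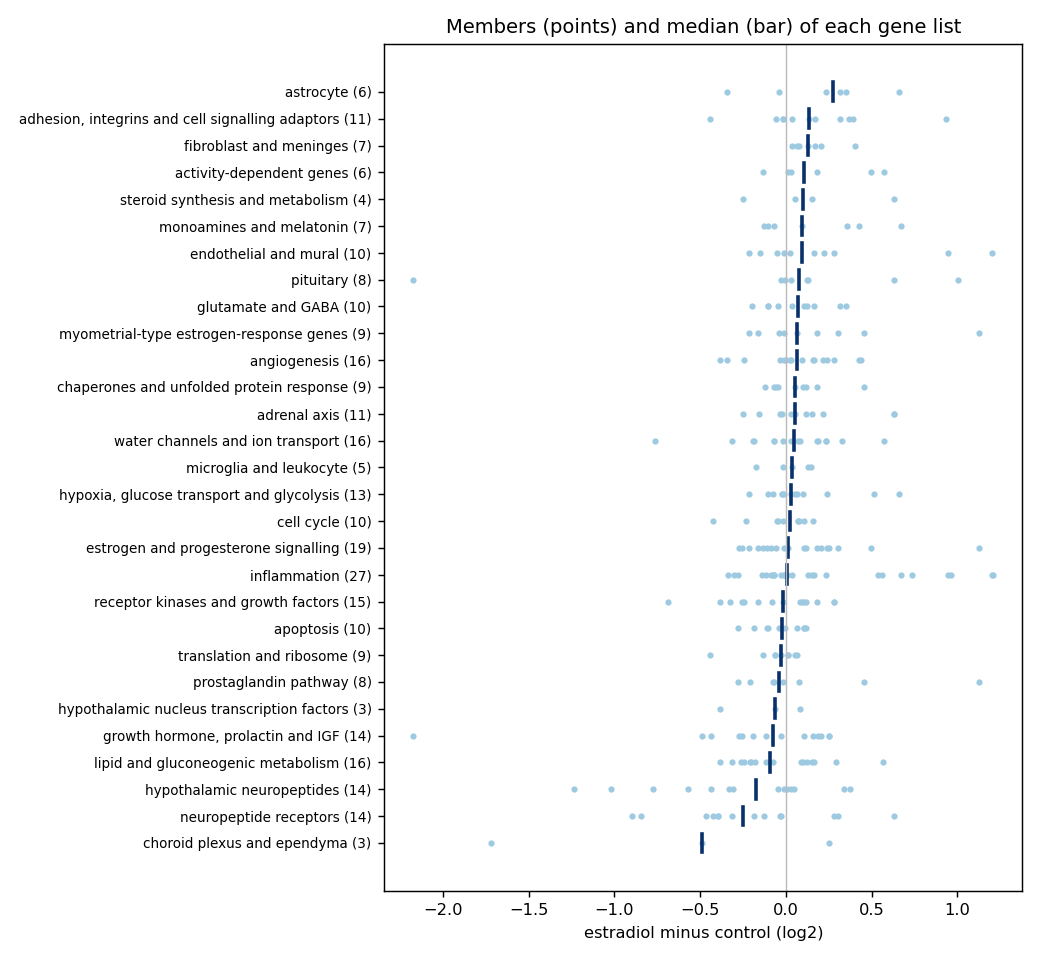
Estradiol minus control difference (log2) of each measured gene of the 29 lists (points, brightest probe of each gene) and the median of each list (bar), with the number of genes in brackets. Medians lie between -0.49 for choroid plexus and ependyma (3 genes) and 0.28 for astrocyte (6 genes).

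Estradiol was also compared between BCO and estradiol+BCO fetuses, and the difference between the 2 estradiol differences was tested as an interaction. It passed at 3 of 12937 probes (0.0232%), with 1104 (8.53%) at an unadjusted p under 0.05. The 3 each had an adjusted p = 0.017, a higher mean with estradiol in sham-occluded and a lower mean in occluded fetuses. A_70_P055401 was at -1.58, -1.95, -1.81 and -1.78 in control, -1.24, -1.06, -1.07 and -1.41 with estradiol, -1.20, -1.35, -1.55 and -1.69 after BCO, and -2.17, -1.97, -2.31 and -2.18 after both. Estradiol fetuses lay wholly above controls and estradiol+BCO fetuses wholly below BCO fetuses. The 2 differences were 0.59 ± 0.11 and -0.71 ± 0.11, and the interaction was 1.30 ± 0.16. A_70_P036801 was at -4.03 to -3.61 in control and -3.53 to -3.46 with estradiol, and its differences were 0.39 ± 0.10 and -0.69 ± 0.10 with no overlap in either pair. A_70_P005946 was at -3.04, -3.02, -2.31 and -2.39 in control and at -2.41, -2.42, -1.61 and -1.86 with estradiol. Its pooled groups overlapped because the slides differed, yet on each slide both estradiol fetuses exceeded both controls (0.61 on each), and among occluded fetuses the difference was -0.42 ± 0.10. In sham-occluded fetuses alone it had the smallest adjusted p of all probes, 0.307.

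These calls were few and moved with single arrays. The number was 0 without BCO replicate 3, control replicate 4, estradiol replicate 2 or estradiol+BCO replicate 2, 3 or 4, and it was 1 without estradiol replicate 4 and 5 without BCO replicate 1. Across 29 alternative fits the interaction passed in 21 for A_70_P055401, 18 for A_70_P036801 and 15 for A_70_P005946.

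Among named genes no interaction passed. AGGF1 came nearest, with 0.44 ± 0.09 in sham-occluded and -0.30 ± 0.09 in occluded fetuses and an interaction of 0.74 ± 0.13 (adjusted p = 0.089). Its occluded groups did not overlap either, with BCO at 0.38 to 0.61 and estradiol+BCO at 0.10 to 0.32. FTO had 0.29 ± 0.12 and -0.50 ± 0.12 (interaction adjusted p = 0.137), with BCO at -0.19 to -0.08 and estradiol+BCO at -1.09 to -0.45. COX5A had 0.88 ± 0.34 and -0.78 ± 0.34 (adjusted p = 0.309). HCRTR1 had -0.90 ± 0.21 and 0.20 ± 0.21 (adjusted p = 0.277), so a lower level with estradiol was not shown to be particular to sham-occluded fetuses. ATP6V1B2 had 0.45 ± 0.14 and 0.29 ± 0.14, and FGFR3 -0.34 ± 0.13 and -0.32 ± 0.13, the same sign in both settings. ESR1 had -0.16 ± 0.41 and 0.93 ± 0.41 (adjusted p = 0.664). Each of the 2 estradiol comparisons has its own controls.

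**Figure D5:**
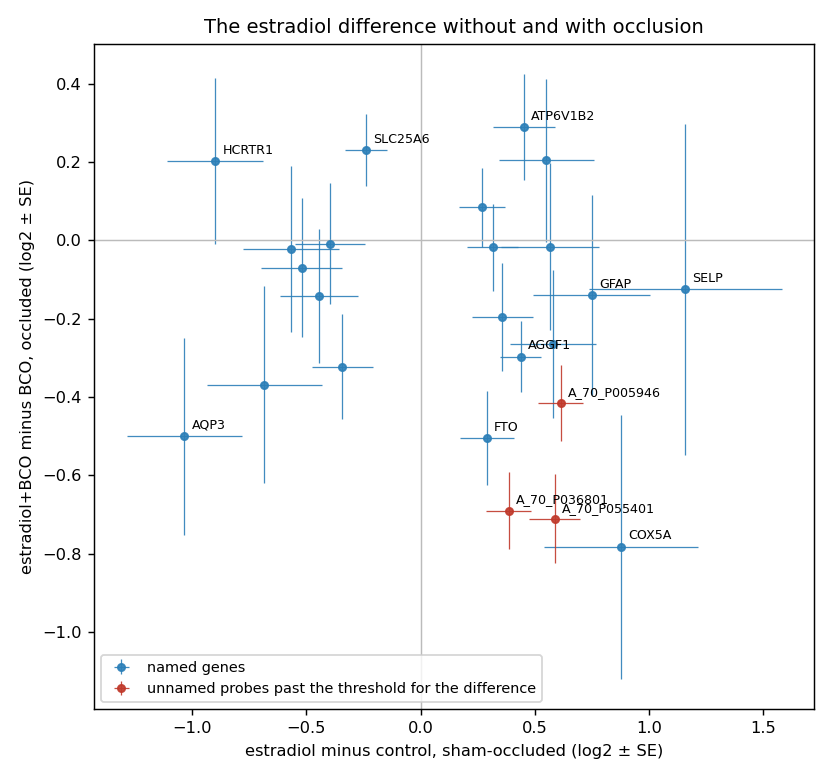
The estradiol difference in sham-occluded fetuses (horizontal) and in occluded fetuses (vertical), both log2 ± SE, for the 20 genes with the lowest p, FTO and the 3 unnamed probes. The unnamed probes, AGGF1, FTO and COX5A lie in the lower right, higher with estradiol without occlusion and lower with it.

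The unnamed probes with the lowest p had differences of the same order as the named ones. On the higher side, A_70_P067076 was at 0.61, 1.00, 0.77 and 0.86 in control and at 1.33, 1.16, 1.53 and 1.34 with estradiol (0.53 ± 0.11). A_70_P010076 differed by 0.69 ± 0.15 and A_70_P013121 by 1.06 ± 0.24, both without overlap. On the lower side A_70_P008966 was at 0.03, -0.20, -0.19 and -0.13 in control and at -0.68, -0.43, -0.68 and -0.43 with estradiol (-0.43 ± 0.10). A_70_P015961 had the largest difference of the 10, -1.43 ± 0.35, but its median signal was 36 units in control and 14 with estradiol, and with normexp correction it was -0.03. A_70_P012306, A_70_P006646 and A_70_P040446 were dim as well (-0.92, -0.83 and -0.62, against 0.03, -0.24 and -0.10 with that correction).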

How the data were processed

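Cy3-labelled RNA (500 ng, RNA integrity numbers 7.4 to 8.4, per the labels' protocols) was put on 1-color Agilent sheep arrays of design 019921 by the authors. Spots were quantified with Feature Extraction 10.1.1.1, per the file headers. In the deposited scanner files the processed signal is an intensity, in arbitrary units, that this software had already corrected for background, and other columns flag spots and give detection calls. The authors' deposited value table is in log2 units and was found to equal log2 of that signal after centring each array on its median over all features.

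Here log2 processed signals were scaled by each array's 75th percentile over all spots that were not controls. Outlier spots were set to missing and spots of the same probe were averaged, giving 15008 distinct probes. Of these, 12937 probes well above background on at least 4 of 16 arrays were tested. Limma 3.58.1 in R 4.3.3 fitted the 4 groups with slide as a block to all 16 arrays (2-sided, Benjamini-Hochberg over all probes, adjusted p under 0.05); summaries used Python 3.11.15 with pandas 2.3.3 and SciPy 1.17.1. Code was tested on simulated data. Probe names came from the files and from RefSeq names of assembly ARS-UI_Ramb_v3.0: 1585 probes carried 981 names and 13423 stayed unnamed. A gene stands in a list by its brightest probe, and in the text by its probe with the lowest p if its p chose it, otherwise by its brightest. Named were the genes of the 12 probes with the lowest p on each side, a panel of 37 genes (34 tested; AVPR1A, HSD11B2 and PRLR were not), up to 4 members of a list with at least 2 members at an unadjusted p under 0.05, and the 5 unnamed probes with the lowest p on each side. Other list members, PRL among them, and A_70_P036801 were named after their values were seen. One gene that this rule chose is not reported here. The members and lists were chosen with earlier results of these data known. Precision is limited by the number of arrays. Alternatives are given in the closing section. Promoter sequences were not analysed here.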

Additional observations from a re-analysis of the deposited data

Results flagged for a closer look

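Of 114 groups of 4 fetuses, taken over the named genes and unnamed probes, 6 had 1 array far from the other 3 by Dixon's criterion, which chance alone meets in about 1 in 20 groups. The TAC3 level of estradiol replicate 2 was -0.19, against -2.39 to -2.13 in the other 3. For AVPR1B, estradiol replicate 1 was at -3.41, against -6.53 to -6.27. Estradiol replicate 3 had ITGA4 at -6.56, against -6.06 to -6.02. STAR in estradiol replicate 4 was at -6.28, against -5.52 to -5.39. ESR2 was apart in control replicate 2, at -5.47 against -6.33 to -6.25, and in estradiol replicate 1, at -5.96 against -6.29 to -6.25.

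The estradiol difference itself differed between sham-occluded and occluded fetuses at 3 probes by the interaction term: A_70_P055401 by 1.30, A_70_P036801 by 1.08 and A_70_P005946 by 1.03 (sham minus occluded, log2, limma adjusted p = 0.017 each).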

How the results depend on the processing

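For estradiol against control, 30 alternatives were run, 16 of them leaving out 1 array. The count of calls was 0 in the main setting and in every alternative except slide 2 alone, where it was 1, the unnamed probe A_70_P008216 (5.09 on slide 2, -0.14 on slide 1, adjusted p = 0.0492). The count at an unadjusted p under 0.05 was 522, 374 to 663 when 1 array was left out, and 802 in a fit of the 8 sham-occluded arrays alone. The interaction count was 3; it was 1 with no slide block, 1 with normexp correction, 0 on slide 1 alone, 0 on slide 2 alone, and 0 to 5 when 1 array was left out. Replicate numbers were not taken to pair the fetuses. The correlations of deviations at the same number were 0.215, 0.135, 0.071 and 0.159. At different numbers on the same slide they were -0.029, 0.104, 0.134 and 0.125. A number also marks a slide, so these values cannot settle whether fetuses were paired. With the replicate block the counts were 0 calls, 542 at an unadjusted p under 0.05 and 3 interactions.

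Of 1670 values of the 57 named genes and unnamed probes under these alternatives 1590 kept their direction, and 0 results passed the threshold in any. The 33 that never turned sign include HCRTR1 (-1.004 to -0.542), HCRTR2 (-0.49 to -0.25), AGGF1 (0.37 to 0.49), ATP6V1B2 (0.36 to 0.55), NCK1 (0.28 to 0.35), GFAP (0.53 to 1.01) and AQP3 (-1.35 to -0.16). These genes were chosen by their low p in the same arrays, so a kept sign reflects that choice in part. With array weights in the fit the sign turned for OXT (0.041), POMC (-0.13), SST (-0.14) and CRHR1 (0.056). With a gene's probes averaged it turned for POMC (-0.038), SST (-0.025), GJA1 (0.0041), CRHBP (0.018) and STAR (-0.013). With normexp correction it turned for KIT (0.059), ESR2 (0.092), PGR (0.049), SST (-0.0070), CRHR1 (0.18), NR3C1 (0.046) and A_70_P012306 (0.031). On slide 1 alone it turned for ESR1 (0.082), AGRP (1.94), NPY (1.65), GAL (0.55), GHRH (2.86), NPVF (0.42), GJA1 (0.14), KITLG (-0.60), CRHBP (0.17) and HSD11B1 (0.19). On slide 2 alone it turned for ESR2 (0.0070), PGR (0.021), OXT (1.28), OXTR (-0.095), POMC (-1.27), SST (-0.71), GNRH1 (0.18), CRHR1 (0.41), AVPR1B (-0.22) and NR3C1 (0.27). Leaving out 1 array at a time turned it for AVPR1B (-0.12 to 0.92), CRHBP (-0.15 to 0.13), CRHR1 (-0.18 to 0.18), ESR1 (-0.33 to 0.12), ESR2 (-0.23 to 0.089), GHRH (-1.55 to 0.69), GJA1 (-0.17 to 0.12), GNRH1 (-0.83 to 0.066), KITLG (-0.12 to 0.35), NPY (-0.77 to 0.13), NR3C1 (-0.27 to 0.017), OXT (-0.79 to 0.36), OXTR (-0.098 to 0.52), PGR (-0.26 to 0.22), POMC (-0.28 to 0.42), SST (-0.32 to 0.27) and TAC3 (-0.15 to 0.65). Of 869 list medians 11 moved by more than the spread between fetuses.

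Precision is limited by 4 fetuses a group and by signal over background: AQP3, KIT, SELP, ITGA4, FGF18, FGFR3 and the dim unnamed probes are dim, where the background correction moved the difference. Within a slide 2 fetuses stand against 2. The causes of the changes were not tested.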

Other observations

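The slide 2 estradiol fetuses can be set beside the fetuses with an occlusion. AGRP, at -4.16 and -4.88 in estradiol replicates 3 and 4, was at -6.35 to -5.53 in the 4 BCO fetuses. In estradiol+BCO fetuses it was at -3.32 and -1.45 on slide 1 and at -6.57 and -5.80 on slide 2. GHRH showed the same order with estradiol+BCO, at -2.48 and -1.29 on slide 1 and -7.52 and -6.70 on slide 2. After BCO it was well above background on 0 of 4 arrays. NPY, at -0.26 and -0.09 in estradiol replicates 3 and 4, was at -0.89 to 1.20 after BCO. In both estradiol groups, then, the slide 1 fetuses had more AGRP and GHRH signal than the slide 2 fetuses, while controls had less on slide 1. What distinguishes those fetuses beyond the slide is not in the labels used here.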
